A study of Mus musculus with 6 samples.

Results

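Transcripts of 10 kinase genes that act beside the ERK1/2 cascade were compared between mouse small intestine labelled wild type and labelled Erk1/2 knockout. The genes were chosen by symbol: Mapk7 and Map2k5 of the ERK5 branch, Mapk14, Mapk11, Mapk13, Map2k3 and Map2k6 of the p38 branch, and Mapk8, Mapk9 and Map2k4 of the JNK branch. All 10 were among the 24452 symbols of each library. RNA-seq was made from polyA RNA of the small intestine of C57BL/6 mice at postnatal day 14, when mice still suckle, with 3 libraries labelled wild type and 3 labelled Erk1/2 -/-. The labels used here do not say in which cells the kinases were deleted, nor that the libraries of a genotype come from different mice. The tests therefore measure spread among libraries, which may be technical. Values are normalised counts: reads per gene that the authors divided by a factor for each library and rounded.

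ERK5, p38 and JNK are the mitogen-activated protein kinase (MAPK) cascades that run parallel to ERK1/2. In each, a MAP3 kinase activates a MAP2 kinase, which phosphorylates a threonine and a tyrosine in the activation loop of the MAP kinase. ERK5 answers growth factors, while p38 and JNK answer stress and inflammatory cytokines. In the intestinal epithelium, ERK5 signalling is known to take over part of the work of ERK1/2 when these are blocked. The question here was whether the transcripts of the parallel kinases differed between the genotypes. Activity of these kinases is set by phosphorylation, which was not measured.

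Libraries of both genotypes summed to between 13641468 and 17153570 normalised counts, from an estimated 12500000 to 16300000 reads. Mapk3, which encodes ERK1, had 3142, 2788 and 2004 across wild type 1 to 3, against 3363, 2280 and 2734 in labelled knockout 1 to 3. The genotypes overlapped, with a log2 fold change of 0.09 ± 0.22 (SE, limma adjusted p = 0.819), -0.09 with scaling by library totals and -0.71 relative to epithelial markers. Since Mapk3 does not separate the genotypes, directions below are those of the labels. Wild type 3 and labelled knockout 1 stood apart in markers of intestinal segment. The mean log2 level of 7 proximal markers minus that of 4 ileal markers was -0.97 and -0.45 in these libraries, and between 3.67 and 5.56 in the other 4. Of 6 ileal markers listed, Slc10a2 and Fabp6 were left out, with 10 or more in fewer than 3 libraries. Ileal Nr0b2 was lowest of its group in wild type 3 (290), and proximal Fabp1 was highest in labelled knockout 1 (65603). The other markers used were lowest (proximal) or highest (ileal) of their group in both libraries. The libraries labelled knockout also differed among themselves by transcript length. Against the mean of the others of its group, genes in the highest quartile of exon length had a median log2 difference of -0.44 in labelled knockout 1, 0.33 in labelled knockout 2 and 0.12 in labelled knockout 3. In the lowest quartile these medians were 0.42, -0.27 and -0.14, while the same medians of the wild type libraries lay between -0.08 and 0.08.

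Mapk14 and Mapk13 are neighbours on chromosome 17 on the plus strand, at 28691329 to 28748406 and 28769297 to 28780233 (GRCm38), 20.89 kb apart with no protein-coding gene between them. They are shown because one was lower and the other higher in every library labelled knockout. Mapk8 on chromosome 14 (33377898 to 33447158, minus strand) and Map2k3 on chromosome 11 (60932033 to 60952811, plus strand) are shown because they were the genes called. The sequences are the 250 bases before the outermost RefSeq start of each gene, 5′ to 3′ on the gene's own strand (RefSeq, GRCm38.p6). They lie at chr17:28691092-28691341, chr17:28769067-28769316, chr14:33447159-33447408 and chr11:60931804-60932053 in the order of the lines. Capitals mark the GC box (GGGCGG), the CCAAT box and the core of the cyclic AMP response element (TGACG), each searched on both strands. None of the marked matches overlap.
Mapk14: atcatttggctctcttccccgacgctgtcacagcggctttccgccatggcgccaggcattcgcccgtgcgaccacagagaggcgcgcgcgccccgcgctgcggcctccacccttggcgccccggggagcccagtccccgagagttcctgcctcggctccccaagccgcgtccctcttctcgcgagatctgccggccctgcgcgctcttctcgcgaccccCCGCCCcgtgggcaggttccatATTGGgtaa
Mapk13: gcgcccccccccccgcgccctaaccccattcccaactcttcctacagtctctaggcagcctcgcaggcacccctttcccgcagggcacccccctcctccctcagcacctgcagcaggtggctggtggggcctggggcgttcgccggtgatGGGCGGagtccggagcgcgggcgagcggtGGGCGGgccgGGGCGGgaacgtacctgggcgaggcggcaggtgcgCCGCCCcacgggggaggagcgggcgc
Mapk8: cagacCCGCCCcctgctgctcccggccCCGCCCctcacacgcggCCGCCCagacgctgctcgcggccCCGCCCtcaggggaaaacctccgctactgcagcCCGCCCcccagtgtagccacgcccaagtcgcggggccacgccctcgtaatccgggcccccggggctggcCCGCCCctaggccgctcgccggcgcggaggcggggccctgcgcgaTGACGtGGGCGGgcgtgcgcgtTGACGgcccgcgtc
Map2k3: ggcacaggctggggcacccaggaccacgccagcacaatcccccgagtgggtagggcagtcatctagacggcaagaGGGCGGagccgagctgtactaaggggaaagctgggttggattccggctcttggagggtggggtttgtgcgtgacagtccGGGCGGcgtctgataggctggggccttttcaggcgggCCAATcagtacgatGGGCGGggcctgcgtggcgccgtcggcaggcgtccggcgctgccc

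These windows were rich in G and C, at 70.4% for Mapk14, 76.0% for Mapk13, 79.2% for Mapk8 and 67.6% for Map2k3, against a median of 52.0% over 27025 RefSeq promoters of the same length. Mapk8 held 7 GC boxes and 36 CpG dinucleotides, Mapk13 held 4 and 25, Map2k3 held 3 and 20, and Mapk14 held 1 and 30. The median over all promoters was 6 CpG. A GC box occurred in 8 of the 10 kinase promoters and in 33.0% of all promoters. The core of the cyclic AMP response element was in 4 of 10 and in 17.8% of all, with 2 matches in Mapk8. A TATA box (TATAAA, both strands) was in none of the 10 and in 13.0% of all. These matches describe letters and do not show that a factor binds.

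Among the 10 kinases, Mapk8 and Map2k3 rose in the libraries labelled knockout and none fell with the authors' scaling. With scaling by library totals none of the 10 was called. With scaling by epithelial markers 6 were called lower and none higher, and Map2k3 turned to -0.24 (log2). In that scaling 8816 of the 14686 genes tested were called lower and 216 higher. Calls were made by limma on log2(normalised count + 1), with p-values adjusted over 14686 genes by the Benjamini-Hochberg method and a threshold of 0.05. The 2 calls of 10 stand beside 8.79% called among all genes tested, 4.85% called higher and 3.94% called lower. Of all calls, 55.2% were higher, against 29.7% with scaling by library totals, 40.6% by upper quartile and 2.39% by epithelial markers. These scalings moved the median of all genes from -0.01 to -0.19, -0.10 and -0.80. The genotypes did not overlap in 4 of the 10, with Mapk13, Map2k3 and Mapk8 higher and Mapk14 lower, beside 37.6% of all genes tested (19.8% higher and 17.8% lower). All 10 genes passed the filter on low values. The median log2 fold change of the 10 was 0.03, against -0.01 for all genes, and 6 were positive.

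**Figure D1:**
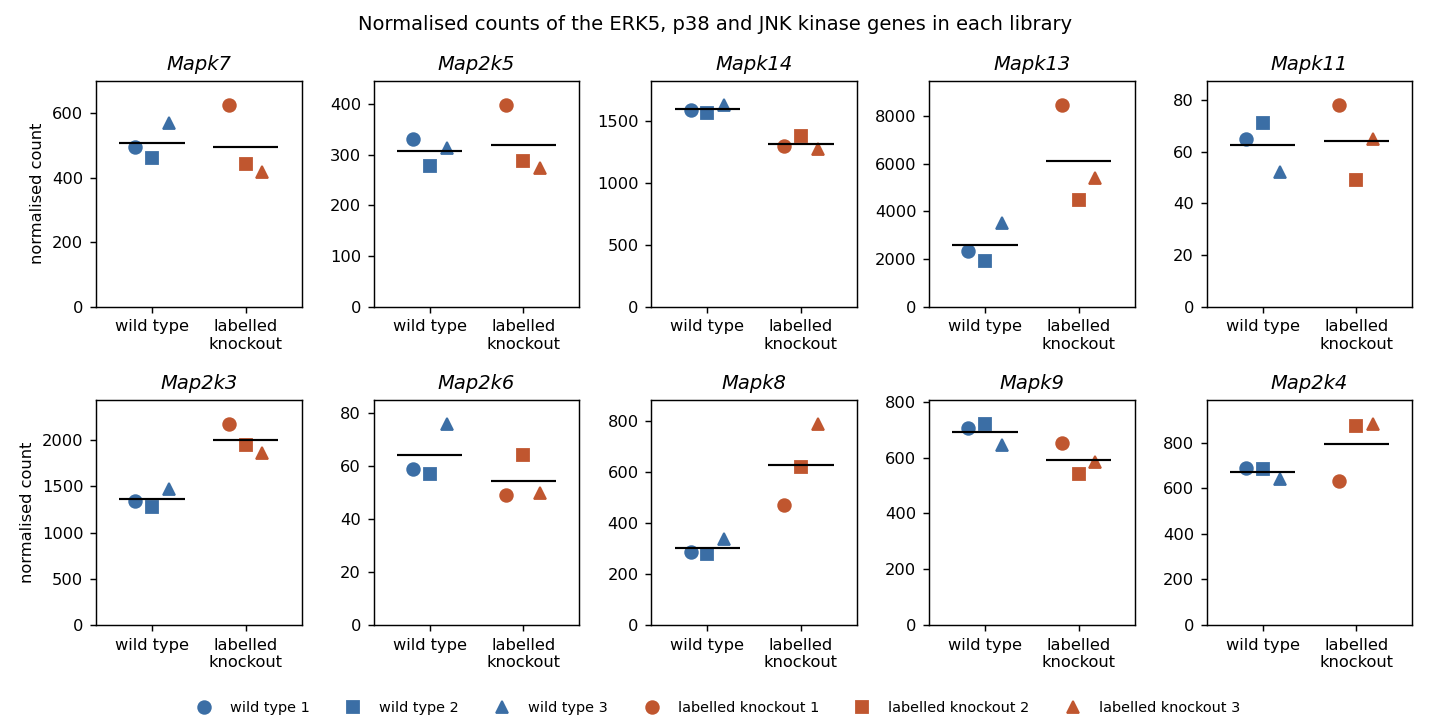
Normalised count (vertical axes, each from 0) of the 10 kinase genes in 3 wild type libraries and 3 labelled knockout libraries; symbols give the replicate number and lines the group means. The genotypes are apart for Mapk14, Mapk13, Map2k3 and Mapk8 and overlap for the other 6 genes.

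Markers of several cell types also differed between the genotypes. In whole tissue, fewer cells of a type and less RNA per cell cannot be told apart. Epithelial markers were high in every library, with Epcam from 20039 to 32017. All 7 had positive fold changes with the authors' scaling, and Krt8 and Krt19, keratins of simple epithelia, were called higher. Their summed level was 82876 to 102095 in wild type and 148321 to 168587 in labelled knockout libraries. Group means of Krt8 and Krt19 were 2.40-fold and 2.72-fold higher in labelled knockout libraries, against 1.29-fold to 1.53-fold for the other epithelial markers. Of 8 leukocyte markers 4 were called lower, with sums of 3379 to 5714 and 1816 to 5449, and of 6 endothelial markers 3 were called lower, with sums of 6770 to 8319 and 4711 to 6107. The limma fit called none of 7 smooth muscle, 6 fibroblast and 7 neuron and glia markers, of which 2, 1 and 2 had an unadjusted p under 0.05, as did 4455 of the 14686 genes tested. Sums of the exocrine pancreas markers ran from 70 to 28374, but only Ctrb1 was above 0 in every library (63 to 15714). Cpa1, Cela3b, Pnlip and Cel were at 0 in wild type 3 and at most 5 in labelled knockout 1 and labelled knockout 3. Of the red blood cell list, Alas2, an enzyme of haem synthesis, was called higher (45, 46 and 45 in wild type against 170, 141 and 109 in labelled knockout libraries; 1.58 ± 0.21, limma adjusted p = 0.0139), while the haemoglobin genes are listed at 0 throughout. The fat genes Adipoq and Lep are also listed at 0, and Plin1 had at most 3. Fabp4 of the same list had 404 to 455 in wild type and 227 to 578 in labelled knockout libraries and was not called.

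With libraries scaled by the summed epithelial markers, an alternative chosen after seeing the data, the log2 fold change was 0.44 for Mapk13 (adjusted p = 0.143), 0.24 for Mapk8 (adjusted p = 0.376) and -0.24 for Map2k3 (adjusted p = 0.159), none of them called. All 3 values lie above the median of all genes in that scaling, -0.80, while Mapk14 had -1.07 and was called lower. The sum used for this scaling includes Krt8 and Krt19, which differed most between the genotypes among the epithelial markers. How far they moved these values was not tested. The part of the cell make-up in the results on these kinases was not tested either.

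Neither gene of the ERK5 branch passed the test. Mapk7 (chromosome 11, 61488812 to 61494406, minus strand) encodes ERK5, a MAP kinase with a long C-terminal tail that acts in transcription. It had 496, 461 and 569 normalised counts across wild type 1 to 3, against 625, 441 and 419 in labelled knockout 1 to 3. The highest and the lowest value were both in libraries labelled knockout, and the genotypes overlapped. Its log2 fold change was -0.06 ± 0.19 (SE, limma adjusted p = 0.860), with a 95% interval from -0.51 to 0.40. That interval leaves room for a 1.32-fold rise or a fall to 0.701 of the wild type level. Mapk7 shares 89 exon bases with Mfap4 on the opposite strand, and with the strand setting not given in the sources used here, reads of the 2 genes there cannot be told apart.

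Map2k5 (chromosome 9, 63163768 to 63377902, minus strand) encodes MEK5, the MAP2 kinase dedicated to ERK5. It had 332, 277 and 313 across wild type 1 to 3, against 398, 288 and 274 in labelled knockout 1 to 3. Labelled knockout 1 was the highest and labelled knockout 3 the lowest, as for Mapk7. The log2 fold change was 0.04 ± 0.19 (limma adjusted p = 0.895), with a 95% interval from -0.40 to 0.48. With 1 library left out, estimates for both genes lay on either side of 0. Scaled by epithelial markers, Mapk7 (-0.85, adjusted p = 0.0070) and Map2k5 (-0.75, adjusted p = 0.0124) were called lower, with the median of all genes at -0.80.

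None of the 3 p38 kinases passed the limma test, and Mapk13 alone had an unadjusted p under 0.05. The genotypes did not overlap for Mapk13, which had higher values in the libraries labelled knockout, or for Mapk14, which had lower ones. Mapk13 encodes p38 delta, a form found mainly in epithelia. It had 2337, 1925 and 3523 across wild type 1 to 3, against 8474, 4483 and 5406 in labelled knockout 1 to 3. The lowest of the labelled knockout values lay above the highest wild type value. Means were 2595 ± 830 and 6121 ± 2089 (SD, n = 3 each). The log2 fold change of 1.23 ± 0.31 was the largest of the 10 in size, with a 95% interval from 0.50 to 1.96 and a limma adjusted p of 0.0536. Within each genotype the highest library was the one with the low segment score, wild type 3 or labelled knockout 1. Without both of these libraries the log2 fold change was 1.21 ± 0.15 with an adjusted p of 0.00340, and with the segment score as a term it was 1.40 ± 0.14 with an adjusted p of 0.00197. Without labelled knockout 1 alone it was 0.97 ± 0.26 and called, with an adjusted p of 0.0454. In this order, the fits called 3762 of 14232, 4351 of 14686 and 2998 of 14525 genes tested. The main fit called 1291 of 14686. Over 12 settings that changed scaling (other than by epithelial markers), filter, model or these libraries, adjusted p-values of Mapk13 ran from 0.00197 to 0.107. Labelled knockout 1, the highest library for Mapk13, also stood apart by transcript length. Mapk13, with 3150 exon bases, lies in length quartile 2, where that library had a median log2 difference of 0.13 against its group. The parts of segment and length in its value were not tested.

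Mapk14 encodes p38 alpha, the widely expressed form of the family. Its normalised counts were 1591, 1570 and 1631 across wild type 1 to 3, against 1302, 1379 and 1276 in labelled knockout 1 to 3. The genotypes did not overlap and libraries of one genotype lay close, with means of 1597 ± 31.0 and 1319 ± 53.6 (SD, n = 3 each). The log2 fold change was -0.28 ± 0.12 with a 95% interval from -0.56 to 0.0019 and did not pass (limma adjusted p = 0.167). Mapk11 (chromosome 15, 89142486 to 89149628, minus strand) encodes p38 beta and was low, with 65, 71 and 52 across wild type 1 to 3, against 78, 49 and 65 in labelled knockout 1 to 3. The genotypes overlapped, and the log2 fold change was 0.02 ± 0.24 (limma adjusted p = 0.968).

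Of the MAP2 kinases that act on p38, Map2k3 rose and Map2k6 did not pass. Map2k3 encodes MKK3 and had 1339, 1276 and 1471 across wild type 1 to 3, against 2180, 1954 and 1863 in labelled knockout 1 to 3. The lowest library labelled knockout was above the highest wild type library. The rise was 1.47-fold (95% interval from 1.18 to 1.83), a log2 fold change of 0.55 ± 0.13 with a limma adjusted p of 0.0498, just inside the threshold. Map2k3 was called in 4 of these 12 settings, where its adjusted p ran from 0.00928 to 0.147, and in 1 of 6 fits that left out 1 library, that without labelled knockout 1. Its log2 fold change ran from 0.38 to 0.61 over all of these fits.

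Map2k6 (chromosome 11, 110399122 to 110525522, plus strand) encodes MKK6, the other activator of p38. It had 59, 57 and 76 across wild type 1 to 3, against 49, 64 and 50 in labelled knockout 1 to 3. The genotypes overlapped, and the log2 fold change was -0.23 ± 0.22 (limma adjusted p = 0.50). The difference between the fold changes of Map2k3 and Map2k6 was not tested.

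Of the JNK kinases, Mapk8 rose and Mapk9 did not pass. Mapk8 encodes JNK1. It had 287, 278 and 338 normalised counts across wild type 1 to 3, against 472, 620 and 789 in labelled knockout 1 to 3. The genotypes did not overlap, and the libraries labelled knockout were spread more widely (627 ± 159) than those labelled wild type (301 ± 32.4; SD, n = 3 each). The rise was 2.04-fold with a 95% interval from 1.44 to 2.89, a log2 fold change of 1.03 ± 0.21 with a limma adjusted p of 0.0351. Mapk8 was called in 10 of these 12 settings, with log2 fold changes from 0.86 to 1.31 and adjusted p-values from 0.00281 to 0.0841. It was lost with scaling by library totals and with a replicate block. In the fits without 1 library it stayed called without labelled knockout 1 (1.22 ± 0.16, adjusted p = 0.00874) and was lost without each of the others, at adjusted p-values up to 0.166. Mapk8 and Mapk9 both fall in the highest quartile of exon length, and labelled knockout 1 was the lowest of its group for Mapk8 and the highest for Mapk9.

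Mapk9 (chromosome 11, 49846751 to 49886421, plus strand) encodes JNK2. It had 705, 722 and 647 across wild type 1 to 3, against 654, 541 and 584 in labelled knockout 1 to 3. Only wild type 3 and labelled knockout 1 overlapped. The log2 fold change was -0.22 ± 0.14 (limma adjusted p = 0.304) with a 95% interval from -0.54 to 0.10. Map2k4 (chromosome 11, 65688243 to 65788297, minus strand) encodes MKK4, which activates JNK and to a lesser degree p38. Its normalised counts were 687, 685 and 641 across wild type 1 to 3, against 630, 875 and 883 in labelled knockout 1 to 3. Labelled knockout 1 was below all wild type libraries and the other labelled knockout libraries were above them. The log2 fold change of 0.23 ± 0.17 did not pass (limma adjusted p = 0.391). Without labelled knockout 1 it was 0.39 ± 0.10 with an adjusted p of 0.0423, in a fit that called 2998 of 14525 genes tested. Over all 6 fits without 1 library adjusted p-values of Map2k4 ran from 0.0423 to 0.674.

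**Figure D2:**
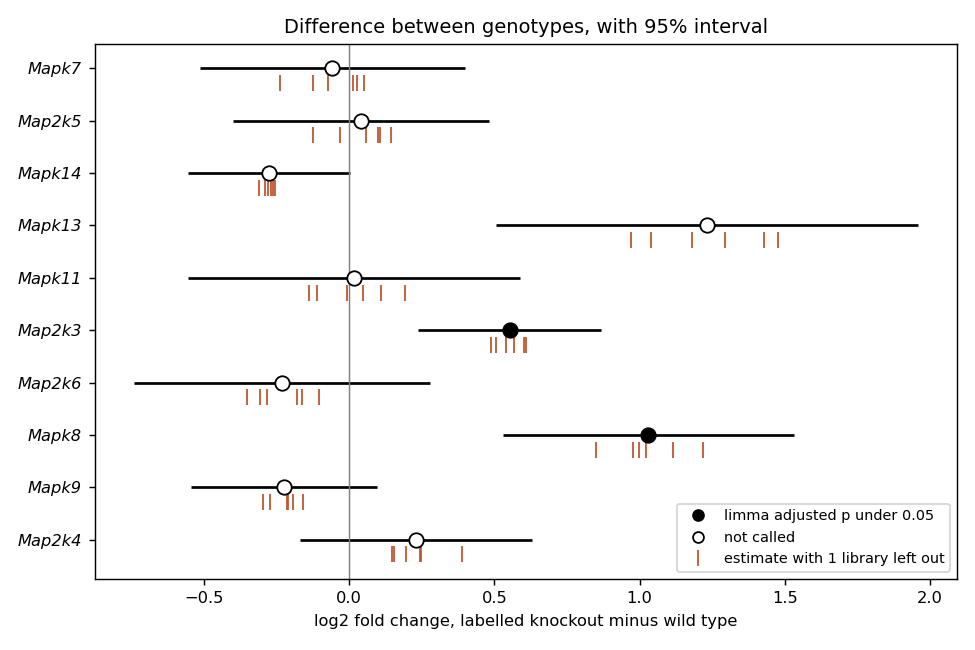
Log2 fold change (horizontal axis, labelled knockout minus wild type) of the 10 kinase genes, with 95% intervals from the limma fit of all 6 libraries; filled circles are called and ticks below each gene are estimates with 1 library left out. Mapk13, Mapk8 and Map2k3 stay above 0 in every such fit, at 0.97, 0.85 and 0.49 or more (Map2k3 is at -0.24 only in the scaling by epithelial markers, not drawn), and Mapk14 stays below 0.

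Levels of different genes were compared per kilobase of exon, using the union of each gene's exons in GENCODE vM21. In wild type libraries Mapk13 was the most abundant of the 10 at 824 ± 263 normalised counts per kilobase, followed by Map2k3 at 411 ± 30.0 and Mapk14 at 365 ± 7.08 (SD, n = 3 each). The ranges of these 3 genes did not overlap. Map2k4 (144 ± 5.58 per kilobase), Mapk7 (116 ± 12.5), Mapk9 (102 ± 5.80) and Map2k5 (94.9 ± 8.62) came next. The ranges of Mapk7 and Mapk9 overlapped, as did those of Mapk9 and Map2k5. Mapk8 (26.3 ± 2.83 per kilobase), Mapk11 (21.7 ± 3.36) and Map2k6 (18.6 ± 3.03) were the lowest, and the ranges of neighbours in this order overlapped. The order and the overlaps depend on the length used. Mapk8 has 11444 bases in the union of exons and 5756 in its longest transcript, and Map2k6 has 3444 and 2088. The ranking was not repeated with the longest transcripts. In the libraries labelled knockout Mapk13 was at 1943 ± 663 per kilobase and Mapk8 at 54.8 ± 13.9.

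The shares of Mapk13 and Mapk8 in their families did not overlap between the genotypes. Mapk13 made up 64.4%, 59.9% and 72.9% of the summed p38 level per kilobase across wild type 1 to 3, against 88.6%, 80.4% and 83.9% in labelled knockout 1 to 3. Mapk14 made up 30.3% ± 5.54 and 14.0% ± 4.01 of it (SD, n = 3 each). The remainder was Mapk11 and Mapk12. For JNK, Mapk8 made up 18.9%, 18.2% and 23.3% of the summed level across wild type 1 to 3, against 29.7%, 39.6% and 43.6% in labelled knockout 1 to 3. With these lengths Mapk9 held the larger share in all 6 libraries, but with the length of the longest transcript Mapk8 held 51.4% and Mapk9 46.8% in labelled knockout 3. The summed JNK level was 131 ± 3.58 per kilobase in wild type and 145 ± 11.8 in labelled knockout libraries, while the summed p38 level was 1235 ± 267 and 2283 ± 666. These shares restate the gene values and were not tested.

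**Figure D3:**
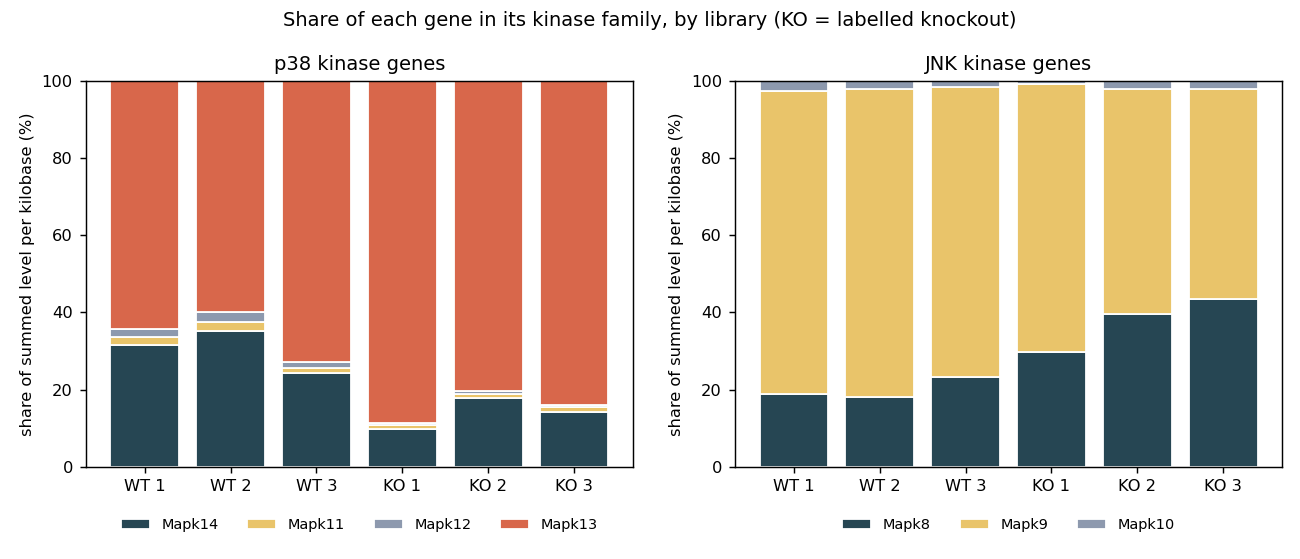
Share of each gene (vertical axis, percent) in the summed level per kilobase of exon of the p38 genes (left) and the JNK genes (right) in each library; KO stands for labelled knockout. Mapk13 holds 59.9% to 72.9% of the p38 level in wild type and 80.4% to 88.6% in labelled knockout libraries, and Mapk8 holds 18.2% to 23.3% and 29.7% to 43.6% of the JNK level.

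The kinases that complete the families did not pass the limma test, with 1 of 3, Mapk12, at an unadjusted p under 0.05. Mapk12 encodes p38 gamma, a form best known from muscle, and lies 1.78 kb from Mapk11. It had 93, 96 and 93 across wild type 1 to 3, against 77, 53 and 57 in labelled knockout 1 to 3, without overlap. Its log2 fold change was -0.60 ± 0.20 (limma adjusted p = 0.10), and without labelled knockout 1 it was -0.76 with an adjusted p of 0.0236. That fit called 2998 of 14525 genes tested. Over all 6 fits without 1 library adjusted p-values of Mapk12 ran from 0.0236 to 0.296. It was also called lower with scaling by library totals (-0.78, adjusted p = 0.0422), without wild type 3 and labelled knockout 1 (-0.77, adjusted p = 0.0274) and with scaling by epithelial markers (-1.38, adjusted p = 0.0040). Mapk10, the JNK3 gene of neurons, averaged 30.7 ± 8.08 and 26.3 ± 11.7 (SD, n = 3 each), and Map2k7, whose product MKK7 acts on JNK alone, 990 ± 4.36 and 878 ± 114. In GENCODE vM21 the exons of Map2k7 share 1349 bases with another gene model on the same strand. That model is not among the symbols of the libraries, and whether it affected the counts of Map2k7 cannot be told.

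Beyond these kinases, 4 of 66 further pathway genes tested were called, 2 higher and 2 lower, or 6.06% beside 8.79% of all genes. Their median log2 fold change was -0.18, with 44 of 66 negative, against -0.01 and 7480 of 14686 for all genes tested. The limma fit called none of 17 MAP3 kinase genes, and 12 of their fold changes were negative. An unadjusted p under 0.05 was found for 2 of these 17, beside 4455 of the 14686 genes tested. Among the MAP3 kinase genes, the highest mean normalised counts, not divided by length, were those of Map3k11 and Taok2. Map3k11 encodes the mixed-lineage kinase MLK3 that feeds JNK (0.13 ± 0.12). Taok2 encodes a kinase that feeds p38 and JNK (-0.30 ± 0.12). The limma fit also called none of 14 scaffolds and adaptors, 1 of which had an unadjusted p under 0.05. Sqstm1, the adaptor p62, had a log2 fold change of -0.06 ± 0.15, and Spag9, the scaffold JIP4, one of -0.37 ± 0.31.

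Among 11 genes whose products p38 acts on, 1 rose and none fell (9.09% called, beside 8.79% of all genes tested). It was Rps6ka4, encoding the nuclear kinase MSK2, with 795, 727 and 695 across wild type 1 to 3, against 1081, 1102 and 1494 in labelled knockout 1 to 3 (log2 fold change 0.72 ± 0.17, limma adjusted p = 0.0468). Among 7 phosphatases of p38 and JNK, 1 rose and none fell (14.3% called, beside the same 8.79%). It was Dusp8, which dephosphorylates JNK and p38, with 174, 170 and 216 in wild type 1 to 3 against 278, 310 and 312 in labelled knockout 1 to 3 (0.69 ± 0.16, limma adjusted p = 0.0442). Scaled by epithelial markers, Rps6ka4 and Dusp8 turned to -0.08 and -0.10 and were not called.

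Among 8 genes whose products JNK acts on, 1 fell and none rose (12.5% called, beside 8.79% of all genes tested). Bcl2l11 encodes BIM, a trigger of apoptosis, and had 589, 636 and 366 across wild type 1 to 3, against 241, 266 and 233 in labelled knockout 1 to 3 (-1.06 ± 0.23, limma adjusted p = 0.0391). Jun, the JNK target that gives the kinase its name, had 3956, 3823 and 4295 in wild type and 3861, 3141 and 2327 in labelled knockout libraries. It was named after its values were seen, and it did not pass (-0.40 ± 0.20, limma adjusted p = 0.228). Among 7 tested genes whose products ERK5 acts on, 1 fell and none rose (14.3% called, beside the same 8.79%). Mef2c, a transcription factor that ERK5 phosphorylates, had 174, 152 and 119 in wild type 1 to 3 against 76, 82 and 73 in labelled knockout 1 to 3 (-0.92 ± 0.19, limma adjusted p = 0.0370). Fosl1 of the same list had at most 9 normalised counts and was not tested. All 4 genes called stayed called without labelled knockout 1, Bcl2l11 also without wild type 3, and none of them without any other single library. Over the same 12 settings as for the kinases, Bcl2l11 was called in 11, Mef2c in 10, and Rps6ka4 and Dusp8 in 7 each. With a replicate block all 4 were lost, at adjusted p-values of 0.0903 for Bcl2l11, 0.107 for Mef2c, 0.122 for Dusp8 and 0.132 for Rps6ka4.

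**Figure D4:**
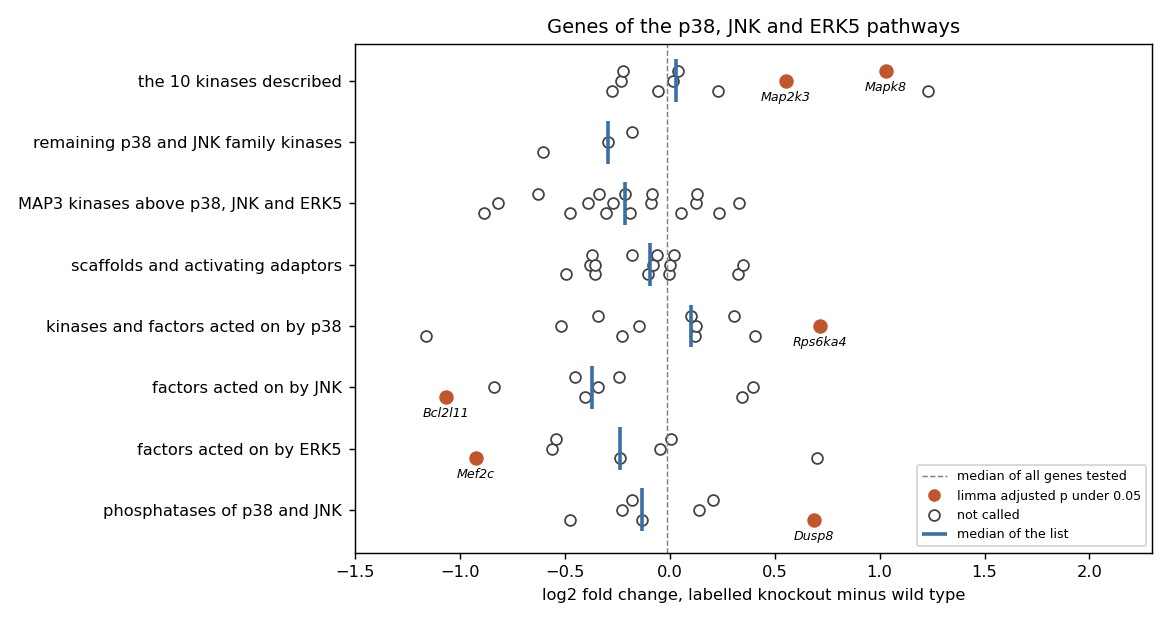
Log2 fold change (horizontal axis, labelled knockout minus wild type) of each tested gene in the 10 kinases and in 7 lists of related pathway genes; filled points are called, blue bars are list medians and the dashed line is the median of all genes tested. Called genes are Mapk8, Map2k3, Rps6ka4 and Dusp8 on the higher side (with the authors' scaling; Map2k3, Rps6ka4 and Dusp8 turn below 0 when scaled by epithelial markers) and Bcl2l11 and Mef2c on the lower side.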

How the data were processed

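Each deposited file holds 1 score for every gene: a normalised count in whole numbers, not a raw read count, so no count model was used. Tools listed by the submitters' processing notes are TopHat2 2.1.0 (aligner), HTSeq 0.6.0 (counting) and DESeq2, with build mm10. Gene annotation and strandedness: not given in the sources used here. Steps in the low whole numbers show that the authors scaled each library (estimated factors from 0.841 to 1.18) and then rounded. They gave the depth, but no single reads, so no counting intervals are given.

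The scaling of the authors was kept. Tests used limma 3.58.1 (R 4.3.3) on log2(value + 1) with trend, and genotype as the only term. A gene entered if 3 libraries or more had 10 or more, which left 14686. Scripts were tested on simulated data. The kinases, lists and alternatives were chosen with earlier results of these data known. The text names all 10 kinases, Mapk3, the other 3 family kinases and the called genes of each list (at most 4). Of lists without a call it names the 2 genes with the highest mean normalised count. Gene models came from GENCODE vM21 (GRCm38) and promoters from RefSeq (GRCm38.p6). Map3k20 was read under an older symbol. Alternatives changed scaling, pseudocount, filter, variance model, covariates and libraries.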

Additional observations from a re-analysis of the deposited data

How the results depend on the processing

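Calls rest on 3 libraries against 3, and most depend on single libraries. With 1 library left out, the number of genes called ran from 28 to 2998 (1291 with all 6), and the number of kinases from 0 to 4 (2 with all 6). The highest values were those without labelled knockout 1. Fewer libraries also leave fewer residual degrees of freedom, and the cause of the gains was not tested. Genes called numbered 2847 at a threshold of 0.1, 4351 with the segment score as a term, 3762 without wild type 3 and labelled knockout 1, and 9032 with epithelial marker scaling. Kinases called numbered 0 with scaling by library totals, 6 with epithelial marker scaling, and 1 with upper quartile or trimmed mean scaling, a pseudocount of 0.5, a filter above 0, no intensity trend or a robust prior variance.

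With 1 library left out, log2 fold changes ran from 0.85 to 1.22 for Mapk8, 0.49 to 0.61 for Map2k3, 0.97 to 1.48 for Mapk13, -0.31 to -0.25 for Mapk14, -0.35 to -0.10 for Map2k6, -0.30 to -0.16 for Mapk9 and 0.15 to 0.39 for Map2k4. They crossed 0 for Mapk7 (-0.24 to 0.051), Map2k5 (-0.13 to 0.14), Mapk11 (-0.14 to 0.19), Mapk3 (-0.10 to 0.22), Sqstm1 (-0.13 to 0.029) and Mapk10 (-0.55 to 0.13).

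With scaling by library totals, Map2k3 (0.38) and Mapk8 (0.86) were no longer called, and Map2k5 (-0.13), Mapk11 (-0.15), Mapk3 (-0.089) and Map3k11 (-0.048) changed sign. Rps6ka4 and Dusp8 were lost with library totals or upper quartile scaling, a filter above 0 and no intensity trend, Mef2c with a filter above 0, and all 4 list genes with a replicate block. Mapk12 (-0.78) was called with library totals. With upper quartile scaling, Map2k3 (0.46) was no longer called, and Map2k5 (-0.048), Mapk11 (-0.072) and Mapk3 (-0.0045) changed sign. Map2k3 was also lost at 0.55 with trimmed mean scaling, a pseudocount of 0.5, a filter above 0, no intensity trend and a robust prior variance. With the segment score as a term, Mapk13 (1.40) was called and Mapk7 was 0.031. Without wild type 3 and labelled knockout 1, Mapk13 (1.21) and Mapk12 (-0.77) were called, and Map2k5 (-0.11), Mapk11 (-0.26) and Mapk3 (-0.25) changed sign.

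With epithelial marker scaling, chosen after seeing the data, Mapk7 (-0.85), Map2k5 (-0.75), Mapk14 (-1.07), Mapk11 (-0.76), Map2k6 (-1.01) and Mapk9 (-1.01) were called lower. So were 8816 of the 14686 genes tested. Mapk8 (0.24) was no longer called. Map2k3 (-0.24), Map2k4 (-0.56), Mapk3 (-0.71), Map3k11 (-0.67), Rps6ka4 (-0.076) and Dusp8 (-0.10) changed sign.

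Replicate numbers are shared between the genotypes in the labels, and whether same-numbered libraries form pairs is not known. Same-numbered deviations correlated at -0.37, 0.30 and -0.16, and only wild type 2 correlated best with its own number. Wild type 3 and labelled knockout 1, which stood apart in segment markers, correlated at 0.41. These correlations therefore cannot show whether libraries were paired. With a replicate block 64 genes and 0 of the 10 kinases were called, with Map2k3 at 0.55 (adjusted p = 0.147) and Mapk8 at 1.03 (adjusted p = 0.0841).

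With lengths of the longest transcript, Mapk8 made up 25.6% of the JNK level in wild type and 45.1% in labelled knockout libraries. With 1 library left out, its shares ran from 18.6% to 21.1% and from 34.7% to 41.6%. Those of Mapk13 in the p38 level ran from 62.2% to 68.7% and from 82.2% to 86.3%.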
